A study of Mus musculus with 3 samples.

Results

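The 7 genes described here are 4 members of the HOXA cluster (Hoxa5, Hoxa7, Hoxa9 and Hoxa10), the HOXB cluster member Hoxb4, and the cofactor genes Meis1 and Pbx3. They were taken by name, with earlier results of these data known, from the genes listed in each of 3 single-cell count matrices (7 of 27998). Each of the 7 had UMIs (unique molecules counted) in every library. HOX genes encode homeodomain transcription factors that lie in clusters, and in blood the HOXA genes are known to be highest in stem and early progenitor cells and to fall as cells mature. MEIS and PBX proteins are homeodomain partners that bind DNA together with HOX proteins, and HOXA9 with MEIS1 is a well known pair in acute myeloid leukaemia. Human leukaemias that carry the RUNX1::RUNX1T1 fusion are known for low HOXA levels among myeloid leukaemias.

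The cells were bone marrow of strain C57BL/6, sorted for c-kit on the surface and for the absence of DAPI and lineage markers, a gate rich in stem and progenitor cells, and profiled with 10x Genomics droplets. Control cells were those of a Wild-type animal. The other libraries, non_mCherry and mCherry, were the reporter-negative and reporter-positive cells of 1 mouse that carried Mx1-Cre and a heterozygous conditional Runx1::Runx1t1 (AML1-ETO) knock-in with mCherry downstream of the fusion. The Mx1 promoter turns on Cre in cells that respond to interferon, here induced with poly(I:C), so that recombined cells make the fusion and the reporter. Whether the Wild-type mouse was also given poly(I:C) is not stated in the labels, nor are the ages of the mice. The 3 libraries thus came from 2 mice, with 1 library per group, so no difference between libraries has a replicate check and none was tested. Intervals below are 95% intervals (exact Poisson for levels and quotients, Clopper-Pearson for shares) and cover counting error only.

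Hoxa5, Hoxa7, Hoxa9 and Hoxa10 lie within the HOXA cluster on the minus strand of mouse chromosome 6 (mm10), at chr6:52201754-52204587, chr6:52214491-52221854, chr6:52223100-52231089 and chr6:52231197-52240854. Hoxb4 lies on the plus strand at chr11:96318267-96321638, Meis1 on the minus strand at chr11:18879817-19018985 and Pbx3 on the minus strand at chr2:34171457-34373142. All are protein-coding. An exon of Hoxa7 overlaps the antisense gene Hoxaas3, Hoxa9 holds Mir196b on its own strand, and Meis1 overlaps Gm37818 on its own strand and Gm16140 on the other. The start windows of the genes that differed most between libraries are printed here, because they are the stretches on which a RUNX factor or the fusion could be looked for: Hoxa9 and Hoxa10, which were lowest in mCherry relative to control, and Meis1, which was highest. Each runs 5′ to 3′ from 250 bases before to 50 bases after the RefSeq start site on the minus strand of GRCm38.p6 (Hoxa9 chr6:52227321-52227620, the first of the 2 Hoxa10 windows chr6:52240805-52241104, and Meis1 chr11:19018920-19019219), with the RUNX core motif in capitals.
Hoxa9: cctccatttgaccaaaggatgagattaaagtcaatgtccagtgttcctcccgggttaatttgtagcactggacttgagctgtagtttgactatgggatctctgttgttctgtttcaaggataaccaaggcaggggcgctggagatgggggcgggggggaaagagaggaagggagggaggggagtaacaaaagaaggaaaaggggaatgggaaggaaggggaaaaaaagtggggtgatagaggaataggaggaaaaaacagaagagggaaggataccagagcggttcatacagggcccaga
Hoxa10: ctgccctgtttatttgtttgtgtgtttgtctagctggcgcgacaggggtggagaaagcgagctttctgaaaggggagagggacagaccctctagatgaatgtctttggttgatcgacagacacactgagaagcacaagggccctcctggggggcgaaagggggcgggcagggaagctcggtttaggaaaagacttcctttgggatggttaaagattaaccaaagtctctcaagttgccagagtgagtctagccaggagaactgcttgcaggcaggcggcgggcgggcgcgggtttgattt
Meis1: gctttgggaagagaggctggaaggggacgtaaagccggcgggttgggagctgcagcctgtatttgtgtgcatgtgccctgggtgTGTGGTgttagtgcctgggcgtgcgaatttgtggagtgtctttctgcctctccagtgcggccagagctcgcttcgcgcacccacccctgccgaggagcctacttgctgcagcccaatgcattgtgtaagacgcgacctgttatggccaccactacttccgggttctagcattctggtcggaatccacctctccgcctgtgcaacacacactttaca
The motif TGTGGT, searched on both strands, was found once, in the Meis1 window, and in none of the other windows of the 6 members with a RefSeq entry. It occurs in 16.8% of the 32851 RefSeq windows of this length. The MEIS motif TGACAG (19.2% of windows) and the PBX-HOX motif TGATTNAT (3.22% of windows), searched the same way, were found in none of the members' windows. A match is a description of these letters and shows no binding.

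After filters on genes, UMIs and mitochondrial share and removal of doublets, 8849 control, 7856 non_mCherry and 10039 mCherry cells were kept, with a median of 15364, 9199 and 8130 UMIs per cell. Between 24 and 42 cell barcodes were shared by each pair of libraries. Runx1t1 had 0.217, 0.323 and 8.42 CPM (UMIs per 1000000 UMIs of the library) in control, non_mCherry and mCherry. The mCherry library also stood apart in measures that touch every level below: Malat1, a nuclear RNA, was at 19678 CPM against 4821 in control and 5312 in non_mCherry, the proliferation gene Mki67 was at 85.6 CPM against 217 and 266, and the median mitochondrial share was 2.50% against 1.87% and 1.87%. Their part in the differences described here was not tested.

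Hoxa9 and Hoxa10 were lower in mCherry than in both other libraries, Hoxa7 differed from control by less than its counting error, Hoxa5 and Meis1 were higher, and Hoxb4 and Pbx3 differed little. Hoxa9, the HOXA gene most tied to leukaemic self-renewal, was at 32.6, 30.5 and 17.9 CPM from control to non_mCherry to mCherry, summed over all kept cells. The mCherry level stood apart from the other libraries, at 0.550 of control (interval 0.519 to 0.582) and 0.586 of non_mCherry (0.551 to 0.624). Hoxa10, its neighbour in the cluster, was at 2.32, 1.26 and 0.703 CPM, from 331, 109 and 63 UMIs. It was lowest in mCherry, 3.31-fold below control, and the non_mCherry level lay between, at 0.542 of control (0.433 to 0.675).

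Hoxa7 was at 29.7, 32.8 and 29.5 CPM in the same order, a quotient of 0.994 for mCherry over control (0.947 to 1.04). Hoxa5 was at 3.66, 3.48 and 5.84 CPM, which made it the 1 HOXA member higher in mCherry, at 1.60 times control (1.41 to 1.80). The 4 HOXA members were thus not shifted by one common factor. Hoxb4, known for expanding stem cells when overexpressed, was at 9.95, 9.14 and 11.6 CPM, 1.16 times control in mCherry (1.07 to 1.26).

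Of the 2 cofactors, Meis1 differed more than Pbx3. Its level was 46.3 CPM in control, 33.4 in non_mCherry and 138 in mCherry. The mCherry level was 2.98 times control (2.89 to 3.07) and 4.12 times non_mCherry (3.95 to 4.29), and non_mCherry was at 0.723 of control (0.692 to 0.755). Pbx3 was at 7.12, 5.83 and 8.21 CPM, 1.15 times control in mCherry (1.05 to 1.27) and 0.819 of control in non_mCherry (0.735 to 0.912).

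Taking 2-fold as the bound among genes that reached 1 CPM in either library compared, 1 of the 7 members (Meis1) was higher and 1 (Hoxa10) lower in mCherry than in control, where 22.4% of 11909 genes were higher and 13.4% lower. Against non_mCherry, Meis1 alone was past the bound, with 21.2% of 12010 genes higher and 13.4% lower. Between non_mCherry and control no member was past it, nor were most genes (3.36% of 11473 higher and 1.09% lower). The median log2 quotient of the 7 members, mCherry over control, was 0.20 against 0.21 over all genes tested. The comparisons with mCherry share that library, and those with control share the control.

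**Figure D1:**
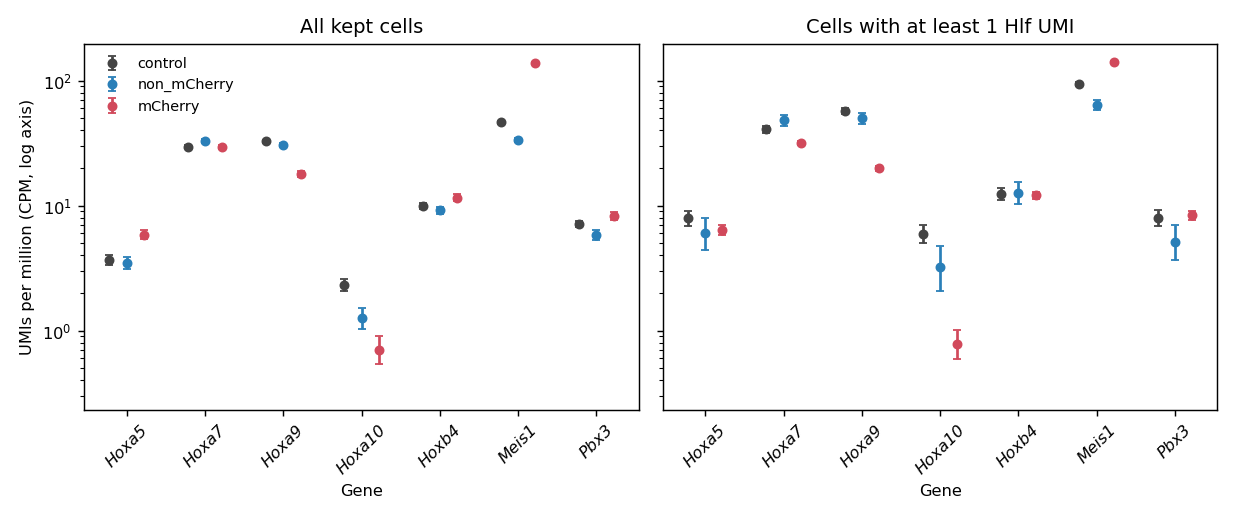
CPM of each member on a log axis in the control, non_mCherry and mCherry libraries, over all kept cells (left) and over cells with at least 1 Hlf UMI (right), with exact 95% Poisson intervals of the 1 library per group. In the right panel Hoxa9 (57.1, 50.1 and 19.8 CPM) and Hoxa10 (5.91, 3.20 and 0.781 CPM) sit lowest in mCherry while Meis1 (93.9, 63.8 and 142 CPM) sits highest there.

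Sums over all cells mix the level per cell with the make-up of the library, and the libraries differed in make-up. Hlf, a transcription factor gene known to mark haematopoietic stem cells, gave at least 1 UMI in 1720 control cells (19.4%), 663 non_mCherry cells (8.44%) and 7857 mCherry cells (78.3%). With every cell of at least 5000 UMIs thinned to 5000 UMIs, the shares were 10.4%, 4.91% and 66.8%. Hlf-positive cells also had other neighbours in the 3 libraries. In control 40.1% of them fell in cluster 5 of a joint clustering made without any HOX, MEIS or PBX gene, a cluster that carried all 6 lymphoid-primed markers but none among its leading genes. In mCherry 38.8%, 23.9%, 16.8%, 12.6% and 7.88% fell in clusters 1, 2, 7, 6 and 16, which were almost only mCherry cells. Of the Hlf-positive non_mCherry cells, 4.07%, 2.56%, 2.56%, 0.452% and 1.06% fell in these clusters in the same order, and 0 of the control ones. The part of such cells in the non_mCherry levels of Hlf-positive cells was not tested. B progenitor-like cells numbered 44 in control, 2024 in non_mCherry and 15 in mCherry. In those of non_mCherry, Hoxa9 was at 1.83 CPM and Meis1 at 2.91 CPM. The all-cell levels of that library, 30.5 and 33.4 CPM, include these cells and are lowered by them.

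Within Hlf-positive cells the lower Hoxa9 and Hoxa10 of mCherry were wider apart from control than over all cells, and the higher Meis1 was nearer to it. Hoxa9 was at 57.1, 50.1 and 19.8 CPM in the same order. Control and non_mCherry lay close together, and mCherry was 2.88-fold below control and at 0.396 of non_mCherry (0.354 to 0.444). Hoxa10 was at 5.91, 3.20 and 0.781 CPM, from 151, 25 and 57 UMIs. It was highest in control and lowest in mCherry, 7.57-fold apart, with an interval up to 0.180 for the quotient of 0.132. Meis1 was at 93.9, 63.8 and 142 CPM. The mCherry level was 1.51 times control (1.44 to 1.58) and 2.22 times non_mCherry (2.03 to 2.44).

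The other members differed less in Hlf-positive cells. Hoxa7 was at 40.6, 48.0 and 31.8 CPM, lowest in mCherry at 0.783 of control (0.727 to 0.843). Hoxa5 was at 7.94, 6.02 and 6.36 CPM, so that mCherry was at 0.800 of control (0.677 to 0.948), the opposite side from all cells. Hoxb4 was at 12.4, 12.7 and 12.1 CPM, the most even of the members, with a quotient of 0.973 (0.855 to 1.11). Pbx3 was at 7.98, 5.12 and 8.34 CPM, and mCherry was 1.63 times non_mCherry (1.18 to 2.30). In mCherry over control 2 of the 7 were at least 2-fold lower and 0 higher, where 12.4% of 11933 genes were lower and 16.9% higher. Over non_mCherry 2 were lower and 1 (Meis1) higher, where 11.1% of 11913 genes were lower and 18.3% higher. Between non_mCherry and control 0 members passed, with 2.33% of 11612 genes higher and 2.43% lower.

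Markers of other cell types moved with these differences. In Hlf-positive mCherry cells the 7 mast cell markers summed to 10684 CPM against 303 CPM in control, with 5 of the 6 tested at least 2-fold higher and Tpsab1 at 0 CPM. The granulocyte-monocyte progenitor list summed to 1284 CPM against 8726 CPM, with 7 of 8 lower, such as Elane at 3.59 against 1931 CPM, and none at 0. The stem cell list had 4 of 9 higher and 1 lower, Mecom, at 6.84 against 18.0 CPM. Hlf, by which these cells were chosen, is on that list and among the 4, so its count there is no separate result. Over all 11933 genes tested, 16.9% were at least 2-fold higher and 12.4% lower. Without cells that held a UMI of the mast cell protease gene Cma1, the mCherry over control quotients were 0.363 for Hoxa9, 0.134 for Hoxa10 and 1.54 for Meis1. This leaves most of the mast cell list's sum in place, because that sum was mainly Cpa3 (9943 against 89.2 CPM), which cluster 2 also held at 16746 CPM with Cma1 at 69.8 CPM. The part of these marker genes in the differences was not tested.

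A stricter gate changed part of this. In the 339 control, 76 non_mCherry and 418 mCherry cells with UMIs of both Hlf and Mecom, a stem cell regulator, Hoxa9 was at 72.8, 63.3 and 42.8 CPM, 0.588 of control in mCherry, no longer 2-fold apart. Hoxa7 was at 46.6, 54.1 and 66.4 CPM, higher in mCherry rather than lower. Hoxa10 was at 12.2, 3.96 and 3.13 CPM, from 55, 3 and 13 UMIs, and Meis1 at 150, 97.7 and 237 CPM. Both of these kept their side.

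Hoxa7, Hoxa9 and Meis1 were higher in cells with more Hlf UMIs in control and mCherry, except for Meis1 between 2 and 3 or more in control, whereas Pbx3 in control stayed between 7.20 and 10.1 CPM. In control cells thinned to 5000 UMIs, Hoxa9 was at 32.7 CPM in cells with 0 Hlf UMIs, at 65.5 CPM with 1 and at 108 CPM with 3 or more. In mCherry it was at 12.1, 16.3, 20.6 and 26.6 CPM, so that the mCherry cells with 3 or more Hlf UMIs (1976 cells) were still below the control cells with none (7500 cells). Meis1 was at 54.9, 120, 196 and 195 CPM in control and at 127, 132, 138 and 174 CPM in mCherry. Its level without Hlf UMIs was thus higher in mCherry, while at 2 Hlf UMIs it was lower there. Hoxa7 went from 30.1 to 71.4 CPM in control and from 22.5 to 44.7 CPM in mCherry. The non_mCherry cells with 3 or more Hlf UMIs were only 19, too few to place.

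**Figure D2:**
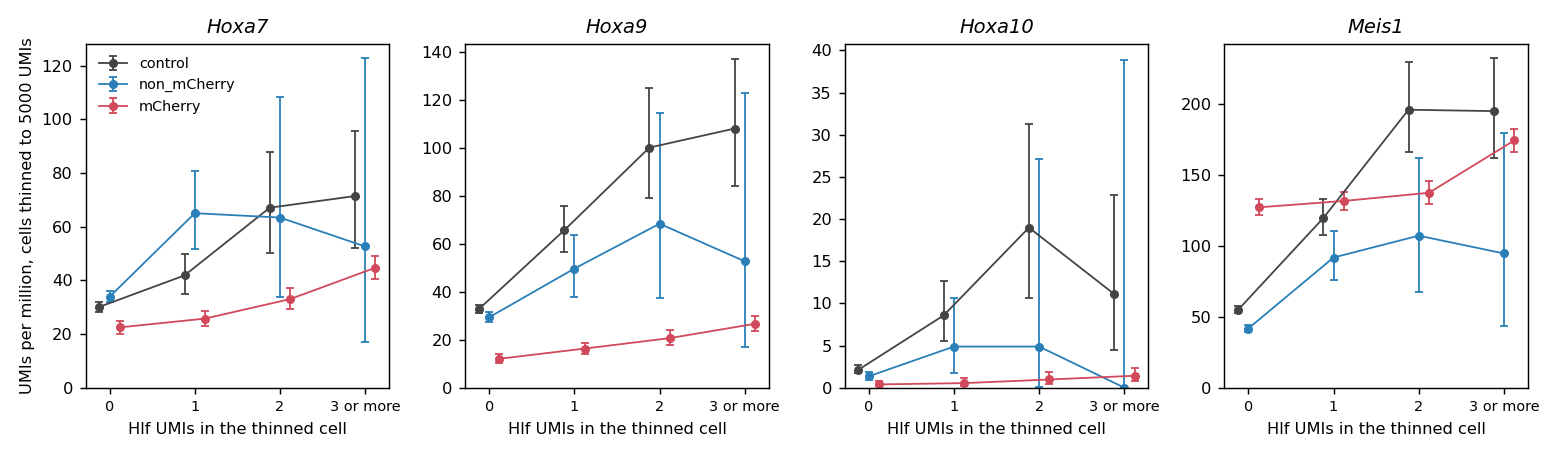
Levels of Hoxa7, Hoxa9, Hoxa10 and Meis1 (CPM in cells thinned to 5000 UMIs) by the number of Hlf UMIs in the same thinned cell, for the control, non_mCherry and mCherry libraries, with exact 95% Poisson intervals. Hoxa9 in mCherry stays between 12.1 and 26.6 CPM, below every control value (32.7 to 108 CPM), while Meis1 starts higher in mCherry (127 against 54.9 CPM).

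The share of cells in which a member was seen was then taken at matched depth. Thinning to 5000 UMIs left 8367 control, 6235 non_mCherry and 9288 mCherry cells and dropped 482, 1621 and 751 shallower ones. Hoxa9 was seen in 15.5% of control cells (14.8 to 16.3), 13.3% of non_mCherry cells (12.5 to 14.2) and 7.74% of mCherry cells (7.21 to 8.30). In B progenitor-like cells of non_mCherry (2024 cells, median 5047 UMIs, unthinned), a class taken here as a low reference, it was seen in 1.04%. Meis1 was seen in 22.6%, 16.1% and 43.4% of cells, against 1.68% of the B progenitor-like cells. Hoxa10 was seen in 1.47%, 0.754% and 0.366%, and in none of the B progenitor-like cells. Hoxa7 was seen in 14.4%, 15.2% and 12.6%, Hoxb4 in 5.08%, 4.38% and 5.76%, and Pbx3 in 3.56%, 3.14% and 4.01%, against 1.53%, 3.46% and 1.73% of the B progenitor-like cells. For Hoxb4 the shares lay above that unthinned reference by less than 2-fold. Its level was 6.06 CPM in the B progenitor-like cells, against 9.95, 9.14 and 11.6 CPM over all cells of the 3 libraries in the same order.

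Hoxa5 was seen in 1.78%, 1.86% and 2.79% of thinned cells, but in 5.38%, 3.62% and 4.74% of cells at full depth, where control is deepest and came out above mCherry. Among Hlf-positive thinned cells, Hoxa9 was seen in 28.4%, 22.5% and 8.92% and Hoxa10 in 5.07%, 2.29% and 0.452%. Meis1 was seen in 47.4%, 30.4% and 45.5%, and the intervals of control and mCherry overlapped (44.0 to 50.8 and 44.3 to 46.8).

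For some pairs of members the count of cells with both genes lay above the product of their shares, and for others below it. Hoxa9 and Meis1 were seen together in 401 control cells against 293 from the product, in 161 non_mCherry cells against 133, and in 434 mCherry cells against 312. Hoxa7 and Hoxa9 were seen together in 273 against 186, 168 against 126, and 159 against 90.7 cells. Hoxb4 and Pbx3 were seen together in 9 control cells against 15.1, with an interval (4.12 to 17.1) that holds the product. Among Hlf-positive thinned cells, Hoxa9 and Meis1 were seen together in 131 against 117, 21 against 20.97, and 345 against 252 cells. Hoxa7 and Hoxa9 were seen together there in 67 against 55.045, 27 against 19.4, and 123 against 78.2 cells. For both pairs the interval held the product in control and non_mCherry (867 and 306 cells) and lay above it in mCherry (6201 cells). Intervals are relatively narrower with more cells, so this does not show that the libraries differ. The count over the product was 1.22, 1.39 and 1.57 for Hoxa7 and Hoxa9 in the same order. For Hoxa9 and Meis1 it was 1.12, 1.0014 and 1.37. The part of mixed cell classes, such as cluster 2 in mCherry, was tested in neither the all-cell nor the Hlf-positive counts. None of the 7 genes was seen in 53.0%, 58.0% and 44.0% of the thinned cells, so most counts per cell are 0 at this depth and the pairs are a description only.

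Across cell classes of control, Hoxa7, Hoxa9, Hoxa10 and Hoxb4 were highest in the lymphoid-primed-like class, Meis1 and Pbx3 in the megakaryocyte-like class, and Hoxa5 in the T, NK and innate lymphoid-like class, at 16.6 CPM but from only 11 UMIs, ahead of 12.4 CPM in the lymphoid-primed-like class. Classes came from clusters named by fixed markers, with clusters that met no name kept by number. In control, Hoxa9 was highest in lymphoid-primed-like cells (cluster 5) at 85.3 CPM, then in unnamed cluster 17, led by histone genes, at 68.0 CPM and in unnamed cluster 15 at 44.6 CPM. Megakaryocyte-like (32.8 CPM), basophil-like (29.97), granulocyte-monocyte progenitor-like (28.6) and unnamed cluster 4 (28.3) lay close together with overlapping intervals. Monocyte and dendritic-like cells had 22.0 CPM and erythroid-like cells 10.8 CPM. T, NK and innate lymphoid-like cells had 9.03 CPM, from only 6 UMIs (3.32 to 19.7). Hoxa10 in control was at 10.9 CPM in cluster 5, at 4.75 CPM in megakaryocyte-like cells and below 4 CPM in every other class. Meis1 in control was highest in megakaryocyte-like cells at 142 CPM, then in cluster 5 at 124 CPM, and lowest in erythroid-like cells at 3.83 CPM. Pbx3 was also highest in megakaryocyte-like control cells, at 13.04 CPM. Hoxb4 ran from 3.25 CPM in erythroid-like to 16.6 CPM in cluster 5.

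Control and non_mCherry could be compared in 10 classes with at least 100 cells in both, whereas mCherry cells shared almost no cluster with them. Hoxa7 was higher in non_mCherry in 6 classes and lower in 0, counting those whose interval for the quotient leaves out 1. In monocyte and dendritic-like cells it was at 56.1 CPM against 30.9 CPM in control, 1.82 times (1.68 to 1.97). That was the highest Hoxa7 quotient of the 10 classes, so none of the 6 reached 2-fold. The share of all genes whose interval leaves out 1 is not given here. The counts of classes by interval are thus a description and no result particular to a member. Hoxa9 was higher in 3 classes: erythroid-like cells (20.99 against 10.8 CPM), granulocyte-monocyte progenitor-like cells (42.0 against 28.6 CPM) and monocyte and dendritic-like cells (34.4 against 22.0 CPM). It was lower in 2, the lymphoid-primed-like cells (65.0 against 85.3 CPM) and unnamed cluster 17 (57.0 against 68.0 CPM). Meis1 was lower in 5 classes and higher in 1, with 79.0 against 124 CPM in lymphoid-primed-like cells and 110 against 142 CPM in megakaryocyte-like cells. Within the megakaryocyte-like class, Meis1 was at 77.6 against 110 CPM in cluster 10. In cluster 18 it was at 230 against 244 CPM, with overlapping intervals. Hoxa10 was lower in the lymphoid-primed-like cells, at 3.45 against 10.9 CPM, and its interval held 1 in the other 9 classes. Hlf in that same cluster was at 60.5 CPM in non_mCherry against 136 CPM in control, and whether its cells are alike in the 2 libraries was not tested. Hoxb4 differed in 0 of the 10.

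**Figure D3:**
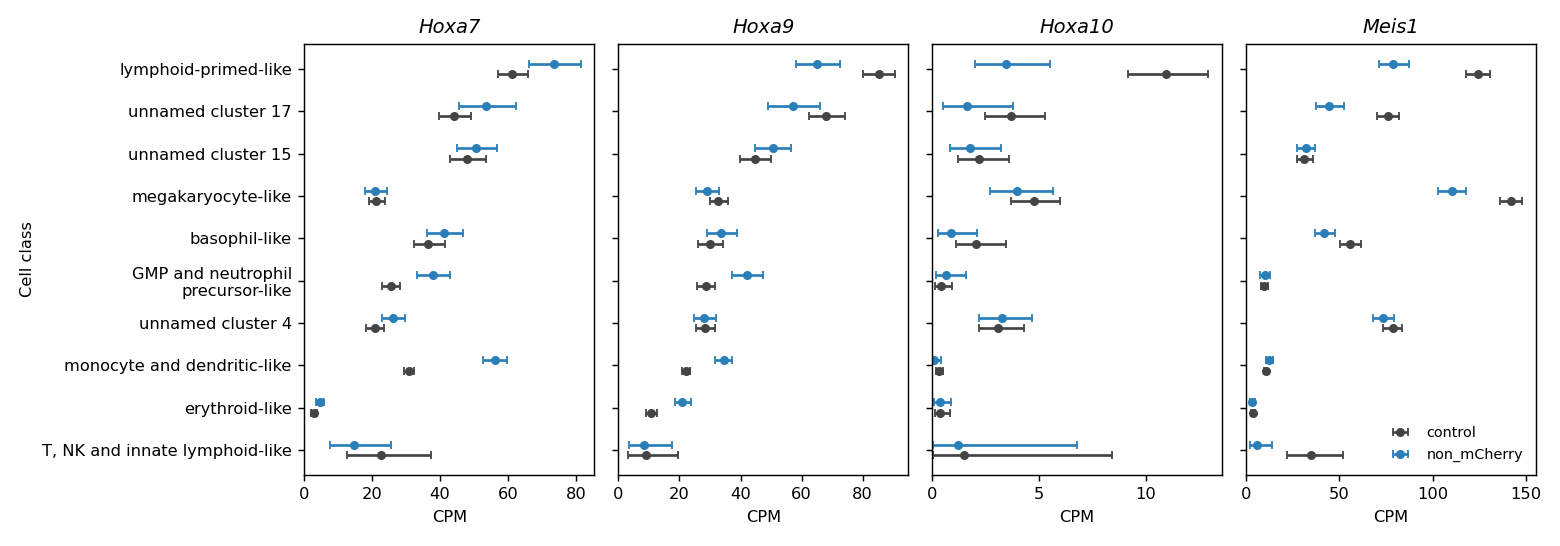
CPM of Hoxa7, Hoxa9, Hoxa10 and Meis1 in the 10 cell classes with at least 100 cells in both the control and the non_mCherry library, with exact 95% Poisson intervals. Hoxa9 and Meis1 sit lower in non_mCherry in the lymphoid-primed-like class (65.0 against 85.3 CPM and 79.0 against 124 CPM), while Hoxa7 sits higher in monocyte and dendritic-like cells (56.1 against 30.9 CPM).

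In mCherry, 5 clusters had at least 100 cells, and the members differed widely among them. These clusters held almost only mCherry cells, so a cluster and the library cannot be told apart. Hoxa9 was at 27.1 CPM in cluster 1 and 20.4 CPM in cluster 7, both stem and multipotent progenitor-like, at 23.9 CPM in unnamed cluster 16, which was led by mitotic genes, at 17.5 CPM in the mast-like cluster 6 and at 1.05 CPM in unnamed cluster 2. No mCherry cluster reached the 85.3 CPM of the control lymphoid-primed-like cells. Meis1 was highest in the mast-like cells, at 244 CPM, then at 165, 133 and 119 CPM in clusters 1, 7 and 16, and lowest in cluster 2 at 56.0 CPM. Hoxa10 was at 1.78 CPM in the mast-like cells (22 UMIs), below 1 CPM in the others, and had no UMI in cluster 2.

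Cluster 2 is singled out after its values were seen, so its contrast is a description. It held 2517 mCherry cells, of which 1878 were Hlf-positive, and was led by Ccl2, Gadd45b, Espn, Pof1b and Ppp1r14c. Hoxa9 was at 1.05 CPM (23 UMIs) against 23.4 CPM in the other mCherry cells, 22.3-fold lower (14.8 to 35.3). Hoxa7 was at 2.91 against 38.2 CPM, 13.1-fold lower, and Hoxa5 at 0.409 against 7.61 CPM, 18.6-fold lower. Hoxa10 had 0 UMIs against 63, or 0.931 CPM. These HOXA levels lay near those of the B progenitor-like cells of non_mCherry, where Hoxa9 had 1.83 CPM, Hoxa7 2.99 CPM and Hoxa5 0.0831 CPM. The bounds of cluster 2 depended on the clustering: at resolution 0.5, 1469 of its 2517 cells fell in 1 cluster of 1477 mCherry cells. In that cluster Hoxa9 was at 0.647 against 20.7 CPM in the other mCherry cells, and Hoxa7 at 1.38 against 34.0 CPM.

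The other members were nearer to the rest in cluster 2. Meis1 was at 56.0 against 164 CPM, 2.93-fold lower, Hoxb4 at 8.05 against 12.7 CPM and Pbx3 at 6.23 against 8.85 CPM. With 4 of the 6 tested members at least 2-fold lower and 0 higher, 8.51% of 11569 genes were lower and 1.69% higher. Hoxa3, a further HOXA gene, was at 0.182 against 3.40 CPM and Pbx2, a PBX cofactor, at 54.8 against 47.1 CPM. Runx1t1 was at 8.74 against 8.32 CPM and Hlf at 218 against 318 CPM. Mki67 was at 9.01 against 110 CPM, Mecom at 0.364 against 8.27 CPM and Malat1 at 24882 against 17989 CPM, and their part in the lower HOXA levels was not tested. The median depth was 8256 UMIs in cluster 2 and 8082 in cluster 1.

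**Figure D4:**
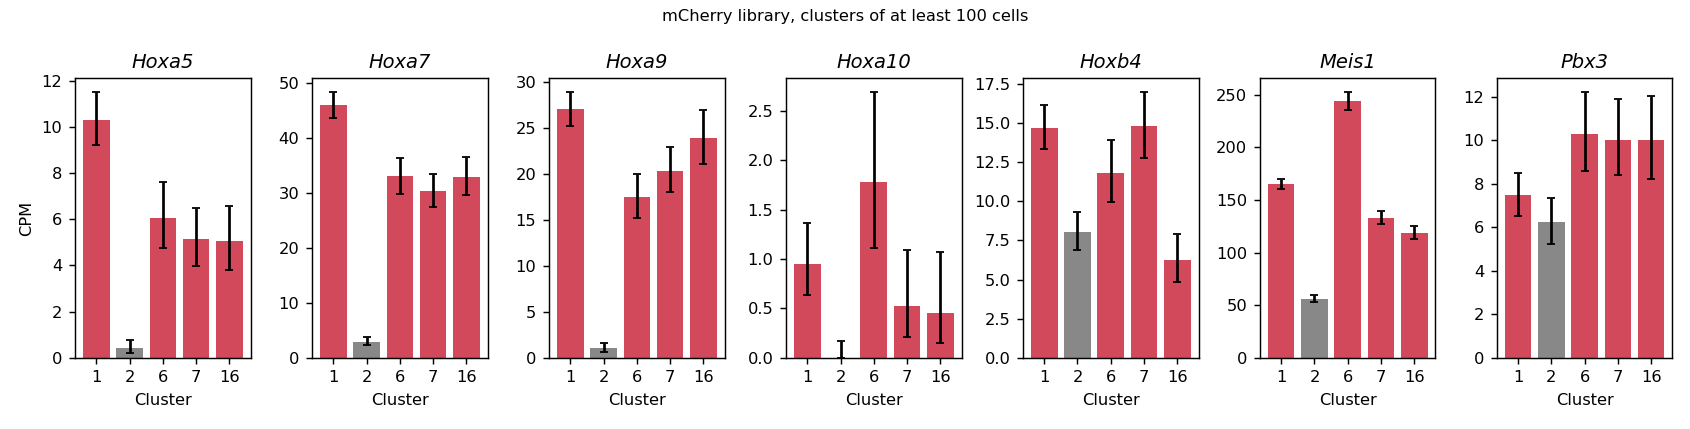
CPM of each member in the 5 clusters of the mCherry library with at least 100 cells; bars start at 0, whiskers are exact 95% Poisson intervals, and grey marks cluster 2. Hoxa5, Hoxa7 and Hoxa9 are near 0 in cluster 2 (0.409, 2.91 and 1.05 CPM), Hoxb4 and Pbx3 are not (8.05 and 6.23 CPM), and Meis1 is highest in the mast-like cluster 6 (244 CPM).

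Cluster 2 moved some of the comparisons with control. Leaving it out, the Hlf-positive mCherry cells (5979 cells) had Hoxa9 at 25.5 CPM against 57.1 CPM in control, Hoxa10 at 1.02 against 5.91 CPM and Meis1 at 167 against 93.9 CPM. Hoxa7 was then at 40.5 against 40.6 CPM and Hoxa5 at 8.16 against 7.94 CPM, so outside cluster 2 these 2 genes lay within counting error of control. Control and mCherry had no cluster of Hlf-positive cells in common among clusters 1, 5 and 7: the control cells there were all in cluster 5 and the mCherry cells all in clusters 1 and 7. With these set side by side, Hoxa9 was at 94.3 CPM in control (689 cells) and 26.5 CPM in mCherry (4366 cells), and Hoxa10 at 13.6 and 0.922 CPM. Meis1 was then at 148 and 160 CPM. Both selections were made after the values were seen, and leaving out cells singled out for low HOXA levels raises the levels of those left.

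The genes whose levels ran most like each member's were sought over 27 class-by-library groups, which share libraries and depth, among 11426 genes. For Hoxa9 the first was its neighbour Hoxa7 (Pearson r = 0.831), then B230118H07Rik (0.825) and Krt18 (0.820). For Meis1 they were Angpt1 (0.928), which encodes a TIE2 ligand, the integrin gene Itga6 (0.928) and Myct1 (0.923). For Hoxa7 they were H2-DMa (0.901), Fam69b (0.873) and Tcp11l1 (0.854), and for Hoxa5 Rcn2 (0.857), Efna4 (0.848) and Bend4 (0.836). For Hoxa10 they were Gm15706 (0.849), Pnck (0.836) and Hdgfrp3 (0.816), for Hoxb4 Ccdc28b (0.830), Adgrg3 (0.821) and Card19 (0.798), and for Pbx3 Exoc6 (0.799), Plxnc1 (0.788) and Cnot4 (0.774). Between Hoxa9 and Meis1 r was 0.359, and between Hoxa9 and Pbx3 0.155.

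Of the 41 other HOX, MEIS, PBX and PKNOX genes listed, 7, 7 and 6 had at least 1 CPM in control, non_mCherry and mCherry. Over all cells Pbx2 was at 25.7, 22.5 and 49.0 CPM and Pbx4 at 16.4, 19.97 and 33.1 CPM, both highest in mCherry. Pknox1, a MEIS relative, was at 19.5, 21.7 and 28.4 CPM. Hoxa3 was at 0.856, 0.785 and 2.61 CPM, and Hoxa4, between Hoxa3 and Hoxa5 in the cluster, at 1.51, 1.11 and 0.814 CPM. In mCherry over control 2 of the 8 tested were at least 2-fold higher (Hoxa3 and Pbx4) and 0 lower, where 22.4% of all genes were higher and 13.4% lower. The antisense gene Hoxaas3, which overlaps Hoxa7 on the other strand, was at 2.86, 2.80 and 2.00 CPM.

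Genes that act on HOX loci and genes described as raised by HOXA9 and MEIS1 were read as lists. Of 29 tested regulators of HOX loci, 6 were at least 2-fold higher in mCherry than in control and 2 lower, where 22.4% of all genes tested were higher and 13.4% lower, so the share of regulators higher was near that of genes at large. Their median log2 quotient was 0.36 against 0.21 over all genes. The furthest up were Aff4, of the super elongation complex, at 169 against 32.2 CPM (5.27 times), the Polycomb genes Cbx7 (5.25 times) and Ezh1 (5.19 times), and the H3K27 demethylase gene Kdm6a (3.08 times). The furthest down were Npm1 at 1511 against 3124 CPM (0.484), the H3K27 methyltransferase gene Ezh2 at 99.6 against 204 CPM (0.488), Brpf1 (0.626) and Xpo1 (0.650). In Hlf-positive cells 5 were higher and 0 lower, where 16.9% of all genes were higher and 12.4% lower, with a median of 0.27 against 0.13.

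Of 22 genes on the HOXA9 and MEIS1 list, 11 were at least 2-fold higher in mCherry than in control and 1 lower, where 22.4% of all genes were higher and 13.4% lower, with a median log2 quotient of 1.01 against 0.21 over all genes. The furthest up were Id2 at 65.9 against 10.1 CPM (6.50 times), the transcription factor genes Ikzf2 (6.36 times) and Erg (6.30 times), and the kinase gene Pim1 (4.60 times). The lowest were Bcl2, a survival gene, at 10.5 against 98.4 CPM (9.38-fold lower), Myc at 122 against 121 CPM, Mecom at 6.33 against 5.35 CPM and Lmo2 at 393 against 319 CPM. In Hlf-positive cells 6 were higher and 2 lower (Bcl2 and Mecom), against 16.9% and 12.4% of all genes, with a median of 0.62 against 0.13. This list was chosen with earlier results of these data known, and it shares Mecom and Cd34 with the stem cell markers. The part of library make-up in its counts was not tested.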

How the data were processed

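The authors deposited 1 sparse matrix of UMI counts per library, whole numbers and not normalized. Per the submitters' processing notes Cell Ranger 6.1.2 and mm10 were used, and per the file headers the software version was 3.1.0, and which of these holds is not settled here. Strand use and doublet removal before deposit are not given in the sources used here. Barcodes per matrix were 9782 (control), 9751 (non_mCherry) and 11323 (mCherry). Cells with at least 1000 genes and 2000 UMIs and at most 10% mitochondrial UMIs were kept. Doublets were scored against simulated sums of cell pairs and removed above a score of 0.25 (217, 200 and 380 cells, or 2.39%, 2.48% and 3.65%).

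CPM is the sum of a gene's UMIs over cells, per 1000000 UMIs of those cells. A sum of 0 was set to a floor of 3 counts in quotients. With 1 library per group no test was run, and a gene that reached 1 CPM in either library counts as higher or lower from 2-fold on. Thinning drew 5000 UMIs per cell without replacement. Clusters (25) came from leidenalg 0.10.2 at resolution 1.0 on 30 components of 2000 variable genes, joint over the libraries, and were named X-like only with at least 3 markers up. PCR and free RNA are not covered by the intervals. Python 3.11.15, numpy 2.4.6, scipy 1.17.1, pandas 2.3.3 and scikit-learn 1.9.0 were used. The quotient calculation was run on simulated counts with Poisson error only. That run checks the calculation and cannot speak to spread between cells, mice or libraries.

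Locations came from the GENCODE annotation of mm10 (27645 of 27998 identifiers matched) and start windows from RefSeq (GRCm38.p6). Named were every member, relatives with at least 1 CPM in a library (some values are not reported here), the 4 furthest up and 4 furthest down of the regulator list and of the HOXA9 and MEIS1 list in mCherry over control, and the 3 genes most like each member by Pearson r of log2(CPM + 5). The members, lists and markers were chosen with earlier results of these data known. Other scalings, filters, gates, depths and cluster resolutions were tried.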

Additional observations from a re-analysis of the deposited data

Results flagged for a closer look

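The non_mCherry over control quotient went opposite ways in different cell classes for 3 members, with intervals that leave out 1 on both sides. With 1 library per group the difference between the classes was not tested. Hoxa9 was at 0.762 of control in lymphoid-primed-like cells and at 1.95 times control in erythroid-like cells. Meis1 was at 0.176 of control in T, NK and innate lymphoid-like cells, from 23 control and 5 non_mCherry UMIs, and at 1.19 times control in monocyte and dendritic-like cells. Hoxa5 was at 0.147 of control in T, NK and innate lymphoid-like cells, from 11 and 2 UMIs, and at 1.69 times control in unnamed cluster 15.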

How the results depend on the processing

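All levels rest on 1 library per group, and fewer than 30 UMIs stood behind some of the Hoxa10, Hoxa5 and Pbx3 values. No paired analysis was possible because each group has 1 library. In Hlf-positive cells Hoxa9 and Hoxa10 stayed below control in mCherry in all 10 alternatives (quotients from 0.281 to 0.588 and from 0.0678 to 0.530) and Meis1 stayed above it (1.08 to 1.78). Over all cells Hoxa9 and Hoxa10 stayed below and Meis1 above in all 5 alternatives.

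The counts of members past 2-fold moved in some settings, and the cause was not tested. Over all cells, the count lower in mCherry than in control (1) was 0 with 5 added to each CPM, 0 with a minimum of 5 CPM and 2 with the mean of per-cell CPM. With that mean, 1 member was lower in mCherry than in non_mCherry and 1 lower in non_mCherry than in control, each 0 as reported. In Hlf-positive cells, the count lower in mCherry than in control (2) was 1 with 5 CPM added and 1 with the Hlf and Mecom gate. The count higher in mCherry than in non_mCherry (1) was 0 with at least 2 Hlf UMIs, 2 with Hlf called after thinning, 2 with the Hlf and Mecom gate, 0 with the mean of per-cell CPM and 0 within clusters 1, 5 and 7. The count lower in mCherry than in non_mCherry (2) was 1 with 5 CPM added, 0 with the Hlf and Mecom gate and 1 outside cluster 2. The count lower in non_mCherry than in control (0) was 1 with at least 2 Hlf UMIs, 2 with Hlf called after thinning, 2 with the Hlf and Mecom gate and 1 within clusters 1, 5 and 7. The alternatives by cluster were chosen after seeing the data. The Hoxa5 share, higher in mCherry than in control at matched depth, was lower by 0.638 percentage points without thinning (-0.638).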
